A study of Mus musculus with 6 samples.

Results

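The genes described here are 41 genes that mark microglia and macrophages or feed and steer them. They were taken as a list of names, with no cut-off on any measured value. The list was chosen with earlier results of these data known. All 41 had at least 1 probe set with that single symbol in the platform annotation, out of 18193 genes so named. Where a gene had several, its brightest probe set on average was read. Affymetrix arrays measured retinas from mice aged about 4 weeks, 3 arrays from prCAD mutant mice, which lack photoreceptor cadherin (gene Cdhr1), and 3 from wild type mice of strain 129. Each array carried the pooled retinas of 3 mice, and the sources used here do not give the strain background of the mutants. Cdhr1 read 11.22 ± 0.21 in wild type and 4.16 ± 0.20 in mutant arrays (SD, n = 3 each) on the log2 scale, so the mutated gene was low in all 3 mutant arrays.

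Microglia are the resident macrophages of the retina and brain. They live in the synaptic layers of the healthy retina, survive on signals through the receptor Csf1r, and survey neurons through receptors such as P2ry12 and Cx3cr1. When photoreceptors degenerate, microglia are known to move into the outer retina, take up debris and turn on lysosomal and inflammatory genes, while the genes of the resting state can decline. Because whole retina was measured, more cells of a type and more RNA per cell cannot be told apart.

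By that known biology the 41 genes were divided into 11 homeostatic genes, 9 activation and leukocyte genes, 10 phagocytic genes, 9 immune receptor genes and 2 growth factors. Of the 41, 18 lay below 4.76, the median of all values, as did 6385 of all 18193 genes, and background limits differences there. These 18 included P2ry12, Cx3cr1 and Aif1, which are commonly used as markers of microglia, whereas Tmem119 and Csf1r lay above the median. Photoreceptor genes such as Sag, which encodes rod arrestin, were bright (13.14 in wild type and 13.40 in mutant arrays). In direction Sag was not typical, since only 2 of 14 photoreceptor markers lay higher in mutant arrays and their median difference was -0.18.

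The lineage factor encoded by Spi1 is a master regulator of macrophages and is known to bind the letters GAGGAAGT, which overlap the shorter core GGAAGT. RefSeq promoter windows of GRCm38.p6, from 250 bases before to 50 after a start site, were found for 29 of the 41 genes. GAGGAAGT was present on either strand in 3 of their 35 windows (8.57%) and in 3.2% of all 32851 windows, and GGAAGT in 14 (40%) and in 23.8%. The 3 genes with the longest match were Ctss, Cd53 and Slco2b1, and their sequences are shown because Ctss differed most among the 41 genes and the others share its match. The shorter core was present for 13 of the 29 genes. Those with a mean difference above 0 were Cd53, Cd68, Ctss, Fcgr2b, Laptm5, Lyz2, Ptprc, Slco2b1 and Tlr2. Those with one below 0 were Hcls1, P2ry12, Fcgr1 and Siglech. Whether a match goes with the direction of the difference was not tested. GAGGAAGT or its reverse complement is in capitals. Each sequence runs 5′ to 3′ on the strand of the gene from 120 bases before to 25 after the start. They lie at chr3:95526666-95526810 (plus strand), chr3:106790125-106790269 (minus) and chr7:99711316-99711460 (minus).
Ctss: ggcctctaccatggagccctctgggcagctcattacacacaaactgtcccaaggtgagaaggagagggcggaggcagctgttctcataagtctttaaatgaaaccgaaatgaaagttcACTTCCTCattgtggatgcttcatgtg
Cd53: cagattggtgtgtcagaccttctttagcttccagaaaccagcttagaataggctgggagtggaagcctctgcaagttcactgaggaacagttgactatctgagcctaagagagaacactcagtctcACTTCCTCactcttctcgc
Slco2b1: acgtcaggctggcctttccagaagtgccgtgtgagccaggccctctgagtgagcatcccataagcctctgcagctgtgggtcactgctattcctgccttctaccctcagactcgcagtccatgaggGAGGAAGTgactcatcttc
A match is a stretch of letters in the window and not a measured binding site.

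Across the 41 genes the mutant arrays lay slightly higher, and the phagocytic genes had the highest class median and the activation genes the lowest among the 4 larger classes. The difference between classes was not tested, and without mutant replicate 3 the receptor genes had a higher median than the phagocytic genes (0.22 and 0.19). None of the 41 passed the test over all probe sets (limma with Benjamini-Hochberg adjustment, threshold 0.05), with or without the replicate number as a block, while 0.0165% of all genes passed on group alone and 0.044% with the block. At an unadjusted p under 0.05 there were 4 of 41, all higher in mutant retina (9.76%, against 2.33% of all genes), and 0 were lower (against 1.09%). With single arrays left out, the count fell to 1 in the absence of wild type replicate 1, to 2 in that of mutant replicate 1 or 2, and reached 7 in that of mutant replicate 3. Over all 45037 probe sets the count moved the same way, from 1360 in the main fit to 946, 1043, 917 and 2954 respectively. With the replicate block 7 of the 41 were higher and 0 lower, against 4.88% and 2.57% of all genes. The genes that the block added were Cd68, Cd53 and Mpeg1. The groups did not overlap, with all mutant arrays higher, for 8 genes (19.5%, against 5.89% of all genes), and for 0 genes with all mutant arrays lower (against 2.88%). In 36 of 41 genes the mean difference was above 0, which was so for 58.4% of all genes. The median difference was 0.11 (quartiles 0.020 and 0.19) beside 0.024 for all genes. Genes of one cell type vary together between pools, so these counts do not stand for independent observations. The genes were also chosen with earlier results of these data known, which limits the comparison with all genes.

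**Figure D1:**
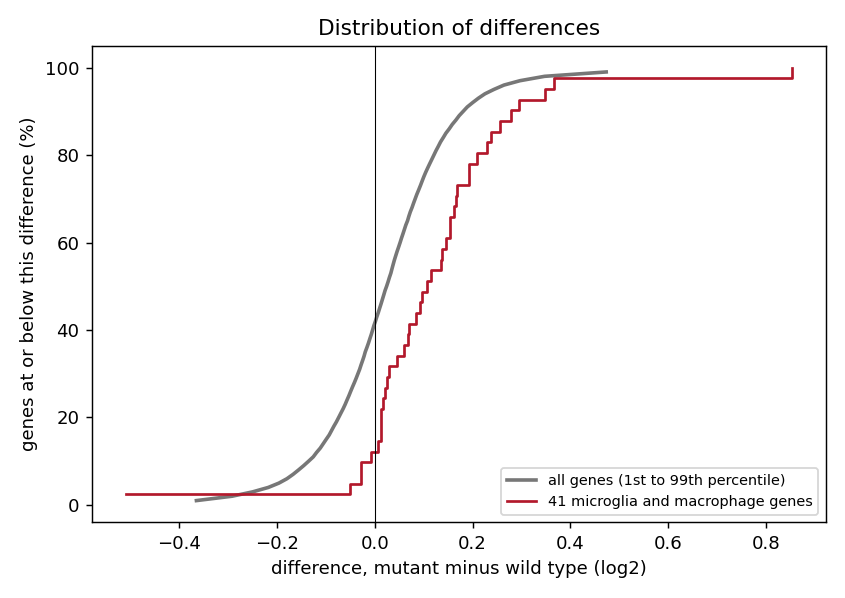
Cumulative share of genes (y axis, percent) at or below each difference between mutant and wild type retina (x axis, log2), for the 41 microglia and macrophage genes (red steps) and for all genes from the 1st to the 99th percentile (grey line). The red steps lie to the right of the grey line over most of their range, with medians of 0.11 and 0.024, and end in Ctss at 0.85.

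Within the pairs of arrays that share a replicate number, the median differences of the 41 genes were 0.12, 0.082 and 0.099. In 15 of 41 genes the mutant array was higher in 3 of 3 pairs (36.6%, against 20.0% of all genes), and in 0 genes it was lower in all 3 (against 11.6%). The arrays differed in how far they took part. Mutant replicate 1 held the highest value of 14 genes and the lowest of 0, and mutant replicate 2 the highest of 8 and the lowest of 1. Mutant replicate 3 held the highest of 8 and also the lowest of 8, and its median deviation from the wild type mean was -0.026, against 0.15 and 0.13 in the other mutant arrays. Wild type replicate 3 held the lowest value of 16 genes and wild type replicate 1 that of 11. Their median deviations from the wild type mean were -0.030 and -0.014, against 0.019 in wild type replicate 2. Replicate 3 thus had the lowest median deviation in each group, by a narrow margin in wild type, and its pair still gave a positive median.

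**Figure D2:**
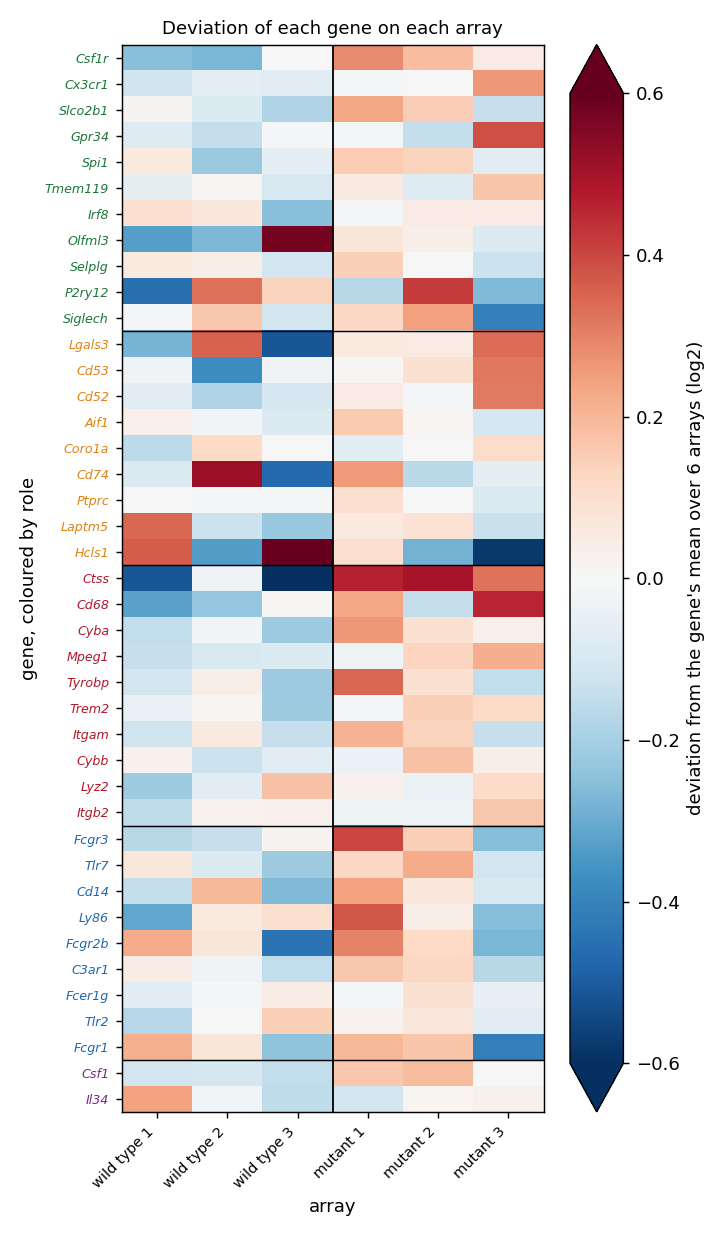
Deviation of each of the 41 genes (rows, grouped and coloured by role) from its own mean over the 6 arrays (columns), as colour on the log2 scale from -0.6 to 0.6, with larger deviations in the end colours. Most phagocytic genes are blue in wild type and red in mutant arrays, while receptor genes are mostly red in mutant replicates 1 and 2 and blue in mutant replicate 3.

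The phagocytic genes were the only class with every mean above 0, 10 of 10, and 7 of the 10 were higher in 3 of 3 pairs. Their median difference was 0.18, with pair medians of 0.28, 0.099 and 0.19. The summed linear signal of the class ran from 322 to 369 in wild type and from 431 to 438 in mutant arrays, without overlap. Without Ctss it ran from 249 to 267 and from 288 to 300.2, again without overlap. The sums of the homeostatic genes did not overlap either (526 to 545 in wild type and 549 to 631 in mutant arrays), nor did those of the growth factors (67.0 to 74.6 and 74.8 to 81.8). Both margins were narrow. Without Csf1r, its brightest gene, the homeostatic class had overlapping sums, and of the growth factors only Csf1 had groups apart. The sums of the receptor genes (389 to 498 and 393 to 554) and of the activation genes (337 to 354 and 319 to 351) overlapped.

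Ctss encodes cathepsin S, a lysosomal protease of microglia that also trims the invariant chain during antigen presentation. Its 1 probe set read 6.19, 6.67 and 5.97 in wild type replicates 1 to 3, and 7.17, 7.20 and 7.03 in mutant replicates 1 to 3. All mutant arrays lay above all wild type arrays, and the wild type arrays spread more widely. The difference was 0.85 (SE 0.18, 95% interval 0.43 to 1.28), a 1.81-fold higher level, with an adjusted p of 0.920 by limma and 0.193 with the replicate block. Leaving out 1 array at a time, it ran from 0.70 to 1.05.

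Cyba encodes the smaller membrane subunit of the phagocyte NADPH oxidase, which makes superoxide. It read 4.88, 5.01 and 4.81 in wild type and 5.29, 5.11 and 5.06 in mutant arrays. The groups were close but did not overlap, with a difference of 0.26 (SE 0.10, adjusted p = 1.00 by limma). Cybb, the larger subunit, had overlapping groups at its brightest probe set (0.12, SE 0.098) and groups apart at a dimmer one (0.28, SE 0.087).

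Mpeg1, which encodes a pore-forming protein of phagocytes, read 5.77, 5.82 and 5.83 in wild type and 5.88, 6.04 and 6.13 in mutant arrays. Its difference of 0.21 (SE 0.097) came without overlap of the groups. Cd68, a glycoprotein of phagocyte lysosomes and a common stain for active microglia, read 3.96, 4.05 and 4.29 in wild type and 4.52, 4.14 and 4.74 in mutant arrays. It was higher in each pair, by 0.55, 0.090 and 0.45, but wild type replicate 3 lay above mutant replicate 2, and all of its values lay below 4.76.

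Trem2 is a lipid-sensing receptor of microglia and Tyrobp its signalling adapter. Trem2 read 5.08, 5.13 and 4.92 in wild type and 5.11, 5.27 and 5.24 in mutant arrays, a difference of 0.17 (SE 0.10). Its groups overlapped by a narrow margin, and a second probe set differed by 0.0012 (SE 0.17). Tyrobp read 4.79, 4.94 and 4.68 in wild type and 5.24, 4.99 and 4.75 in mutant arrays, a difference of 0.19 (SE 0.15) that was 0.067 without mutant replicate 1. The other phagocytic genes had overlapping groups: the integrin chains Itgam (0.14, SE 0.12) and Itgb2 (0.069, SE 0.10), through which macrophages bind complement-coated particles, and the lysozyme gene Lyz2 (0.069, SE 0.12).

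**Figure D3:**
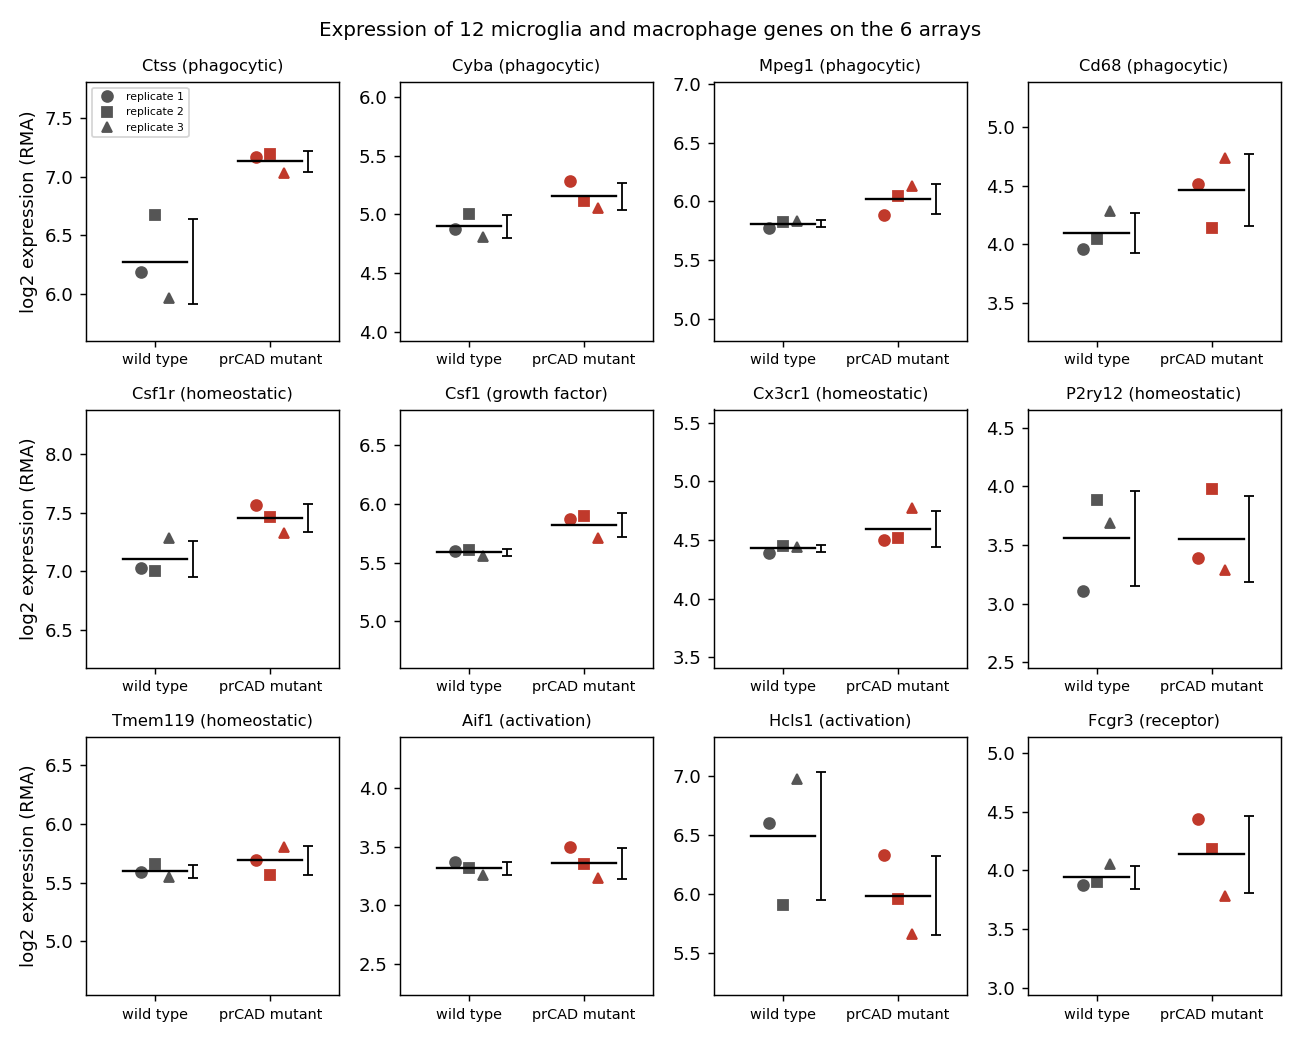
Log2 expression (RMA, y axes of equal length) of 12 of the genes on each array, by group, with circles, squares and triangles for replicates 1, 2 and 3, a line at the group mean and a bar of 1 SD to its right. The groups are apart for Ctss, Cyba, Mpeg1, Csf1r, Csf1 and Cx3cr1 and overlap for Cd68, P2ry12, Tmem119, Aif1, Hcls1 and Fcgr3.

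The homeostatic genes were not lower in mutant retina as a class: 9 of 11 means were above 0. At an unadjusted p under 0.05, 1 was higher (9.09%, against 2.33% of all genes). The class median difference was 0.092 (pairs 0.11, 0.082 and 0.044). Csf1r, the receptor on which microglia depend for survival, read 7.03, 7.01 and 7.28 in wild type and 7.56, 7.47 and 7.33 in mutant arrays. The groups did not overlap at any of its 3 probe sets, whose differences were 0.35 (SE 0.12), 0.35 (SE 0.11) and 0.26 (SE 0.087). At the brightest of them limma gave an adjusted p of 1.00, or 0.607 when pairs were blocked. The pair differences were 0.53, 0.46 and 0.046, so that the third pair hardly differed, and without both arrays of replicate 3 the difference was 0.50 (adjusted p = 0.246).

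Cx3cr1, the receptor for neuronal fractalkine, read 4.39, 4.45 and 4.44 in wild type and 4.50, 4.51 and 4.77 in mutant arrays. The groups did not overlap (0.17, SE 0.10), but its dimmer probe set differed by -0.080 (SE 0.10). Slco2b1, an organic anion transporter, read 6.73, 6.63 and 6.53 in wild type and 6.95, 6.86 and 6.58 in mutant arrays. It was higher in each pair (0.16, SE 0.12), and each of its 3 probe sets differed in the same direction.

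P2ry12 and Tmem119 are commonly used to tell microglia from other macrophages. P2ry12, a purinergic receptor of resting microglia, read 3.10, 3.88 and 3.69 in wild type and 3.39, 3.97 and 3.29 in mutant arrays. The group means were nearly equal (-0.0083, SE 0.25), and the interval from -0.60 to 0.59 is wide, the SD between arrays being 0.41 in wild type and 0.37 in mutant retina. With 1 array left out the difference ran from -0.24 to 0.15. Tmem119 read 5.59, 5.66 and 5.55 in wild type and 5.70, 5.56 and 5.81 in mutant arrays, with overlapping groups. Its difference of 0.092 (SE 0.098) had an interval from -0.14 to 0.32.

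The remaining homeostatic genes differed by between -0.027 (SE 0.18) for Siglech, a lectin of microglia, and 0.15 (SE 0.15) for Gpr34, a lysophospholipid receptor. Between them lay Selplg, the selectin ligand (0.012, SE 0.11), and Olfml3, a secreted matrix protein (0.018, SE 0.24). Olfml3 was high on wild type replicate 3 (5.39, against 4.48 and 4.54 on the other wild type arrays). The lineage transcription factor genes Spi1 (0.15, SE 0.11) and Irf8 (0.060, SE 0.12) had overlapping groups as well.

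Among activation and leukocyte genes 8 of 9 means were above 0, with a median difference of 0.029 (pairs 0.10, 0.031 and 0.11), close to that of all genes. Without mutant replicate 1 the class median was -0.022, and without wild type replicate 2 it was 0.095. Cd52, a small surface glycoprotein of leukocytes, read 3.52, 3.40 and 3.48 in wild type and 3.63, 3.57 and 3.89 in mutant arrays. The tetraspanin gene Cd53 read 3.93, 3.57 and 3.93 in wild type and 3.96, 4.04 and 4.27 in mutant arrays. Both had groups that did not overlap (0.23, SE 0.11, and 0.28, SE 0.14), and both lay below 4.76 on all arrays.

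Aif1, which encodes the calcium-binding protein Iba1 that is widely used to stain microglia, read 3.37, 3.32 and 3.26 in wild type and 3.50, 3.35 and 3.23 in mutant arrays. It differed by 0.045 (SE 0.10) and lay far below 4.76 on every array. Lgals3, galectin 3 of phagocytes, read 5.57, 6.20 and 5.33 in wild type and 5.90, 5.90 and 6.19 in mutant arrays. Its pair differences of 0.34, -0.30 and 0.85 did not share a sign. Hcls1, an actin regulator of blood cells, was the gene with the largest negative difference, -0.51 (SE 0.29). It read 6.60, 5.91 and 6.98 in wild type and 6.33, 5.96 and 5.66 in mutant arrays, and without both arrays of replicate 3 the difference was -0.11.

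The other members of this class differed by less than 0.05: the invariant chain gene Cd74 (0.025, SE 0.25), the actin-binding coronin Coro1a (0.029, SE 0.11), the phosphatase gene Ptprc (0.013, SE 0.089) and Laptm5 (0.0057, SE 0.16), a lysosomal membrane protein of leukocytes. Ptprc read between 2.75 and 2.93 on all arrays, far below 4.76.

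The immune receptor genes had a median difference of 0.097, with 8 of 9 means above 0. In 0 of the 9 were the groups apart, against 5.89% of all genes higher and 2.88% lower. With 9 genes, 0 cannot be told from these shares. Their pair medians were 0.12, 0.095 and -0.091, so the third pair went the other way. Single arrays moved the class median widely: leaving out mutant replicate 1, 2 or 3 gave 0.023, 0.060 and 0.22, and leaving out wild type replicate 2 or 3 gave 0.15 and 0.047. Fcgr3, an activating receptor for antibody, read 3.87, 3.90 and 4.05 in wild type and 4.44, 4.18 and 3.78 in mutant arrays. It was higher in mutant replicates 1 and 2 and lowest in mutant replicate 3 (0.19, SE 0.17). Ly86, a partner of a toll-like receptor homologue, was likewise highest in mutant replicate 1 (0.11, SE 0.19). The shared Fc adapter gene Fcer1g differed by 0.020 (SE 0.088) and the high-affinity receptor gene Fcgr1 by -0.029 (SE 0.20).

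Fcgr2b, the inhibitory receptor for antibody, had 5 probe sets that did not read alike. The brightest differed by 0.097 (SE 0.21), and its level was lower on replicate 3 of both groups (7.52 and 7.69) than on the other arrays (8.04 to 8.26). The other 4 differed by between -0.10 and -0.0018, and at 1 of them (-0.074, SE 0.082) all mutant arrays lay below all wild type arrays, the only such case among the 70 probe sets of the 41 genes. The pattern receptor genes Tlr2 (0.013, SE 0.11) and Tlr7 (0.15, SE 0.13), the co-receptor gene Cd14 (0.14, SE 0.15) and the complement fragment receptor gene C3ar1 (0.083, SE 0.12) had overlapping groups.

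Both ligands of Csf1r were measured. Csf1 read 5.60, 5.61 and 5.56 in wild type and 5.87, 5.89 and 5.71 in mutant arrays, without overlap and with a difference of 0.24 (SE 0.091, adjusted p = 1.00 by limma). Its 3 other probe sets differed by 0.11, 0.074 and 0.011, and the mean of all 4 by 0.11. Il34, the ligand that neurons make, read 4.71, 4.45 and 4.32 in wild type and 4.36, 4.48 and 4.49 in mutant arrays, and differed by -0.050 (SE 0.12) with overlapping groups.

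**Figure D4:**
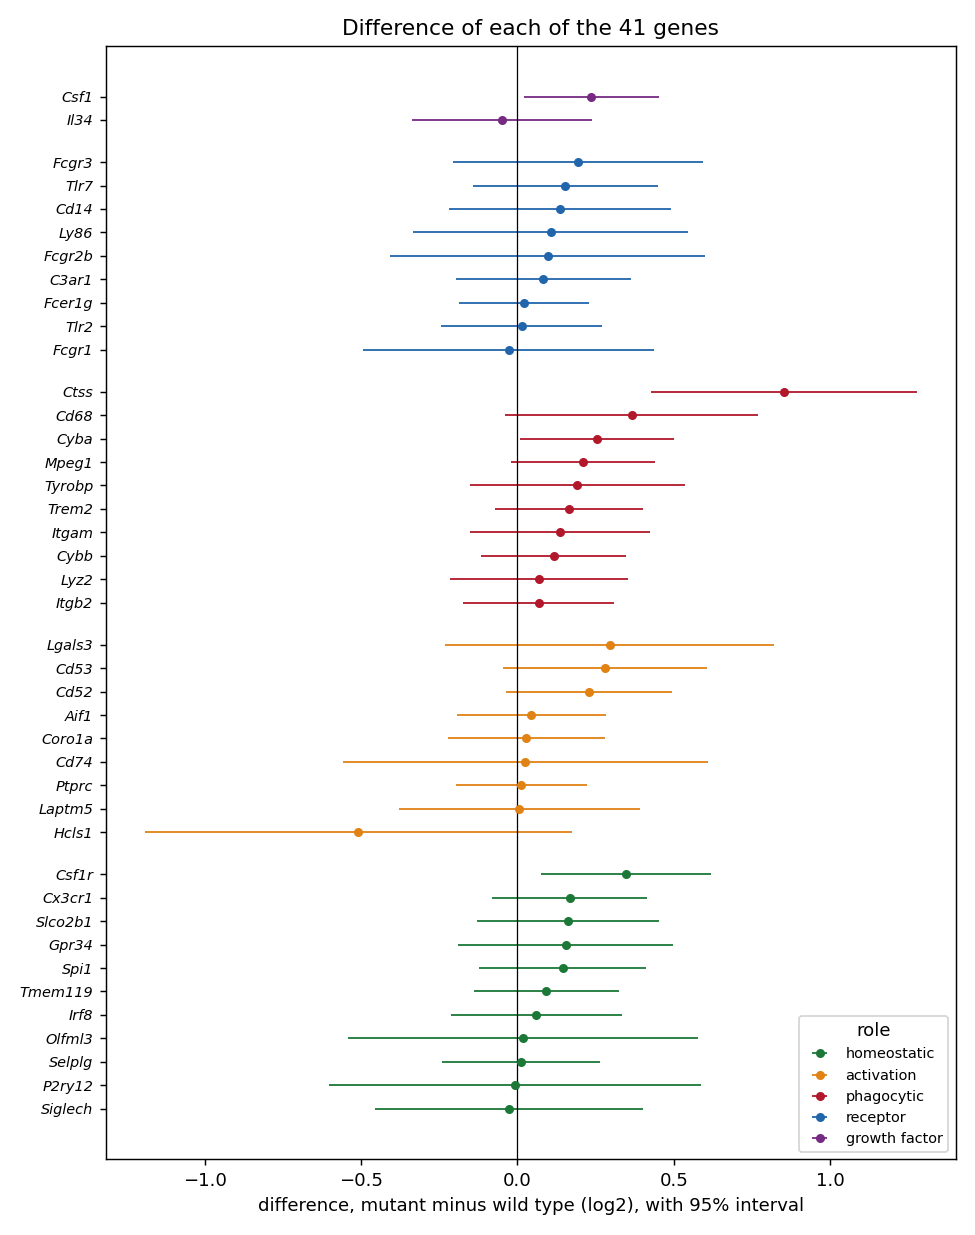
Difference between mutant and wild type retina (x axis, log2) of each of the 41 genes (rows, coloured by role). Bars are the 95% interval of the limma fit on group alone, without the replicate block. Ctss, Csf1r, Cyba and Csf1 have intervals above 0, and those of the other 37 genes include 0.

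Taking all probe sets, the 41 genes had 70, and 15 genes had more than 1. Of the 29 probe sets that were not the brightest of their gene, 18 differed in the same direction as the brightest and 11 in the opposite one. In 8 of the 15 genes all probe sets shared a direction, Csf1r, Csf1 and Slco2b1 among them. Intervals give the size that the data allow: for 39 of 41 genes the 95% interval lay within a log2 difference of 1 in either direction, the exceptions being Ctss and Hcls1, and for 27 it lay within 0.5. The SD between arrays of one group was like that of other genes, with a median of 0.14 in each group for these genes and of 0.13 in wild type and 0.14 in mutant arrays for all genes.

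Further genes of the same pathways were read from lists, 91 measured genes besides the 41. None passed over all probe sets, and the median difference was 0.081. At an unadjusted p under 0.05, 8 were higher and 0 lower, against 2.33% and 1.09% of all genes. In the lysosome and cathepsin list 13 of 15 means were above 0, with a median of 0.19 and pair medians of 0.13, 0.056 and 0.27. Without wild type replicate 3 that median was 0.056, and the summed linear signal overlapped between the groups (6148 to 7789 in wild type and 7412 to 8116 in mutant arrays). Lamp2, a lysosomal membrane protein, differed by 0.27 (SE 0.091), the progranulin gene Grn by 0.25 (SE 0.11) and the sterol carrier gene Npc2 by 0.21 (SE 0.10). Among 16 genes known from disease-associated microglia, Cybb included, 4 were higher at an unadjusted p under 0.05 (against 2.33% of all genes). The median was 0.12. Gpnmb, a glycoprotein of phagocytes and pigment cells, differed by 0.77 (SE 0.19), the clearance receptor gene Axl by 0.33 (SE 0.11) and Cd9, a tetraspanin also found in Müller glia, by 0.56 (SE 0.18).

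The toll-like receptor list had a median of 0.070 over 15 genes (-0.00043 without mutant replicate 1 and 0.033 without wild type replicate 3), with Tlr4, the receptor for endotoxin, 0.35 higher (SE 0.097), Myd88 0.17 higher (SE 0.13) and Ly96 0.16 lower (-0.16, SE 0.15). Signalling genes below Trem2 and the Fc receptors centred on 0.0055 over 14 genes. Of these 0 had an unadjusted p under 0.05, against 2.33% of all genes higher and 1.09% lower. In that list Pik3cg differed by 0.094 (SE 0.087), Pik3ap1 by -0.11 (SE 0.11) and the kinase gene Syk by 0.12 (SE 0.14). The 7 integrin partners had a median of 0.0026, and the 4 partners of the NADPH oxidase one of 0.13 with pair medians from -0.13 to 0.26 and a median of 0.039 without wild type replicate 3. Of 22 other genes enriched in microglia 17 lay higher, with a median of 0.11 (0.058 without mutant replicate 1); Crybb1 among them is also a lens crystallin. Lrrc3 differed by 0.29 (SE 0.087), the phagocytic receptor gene Mertk by 0.35 (SE 0.14) and the purinergic receptor gene P2ry6 by 0.20 (SE 0.12).

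The summed signals of markers of other macrophages and of blood cells overlapped between the 2 groups. Perivascular and border macrophage markers had a median difference of 0.017 (7 of 10 higher, summed linear signal 179 to 196 in wild type and 177 to 194 in mutant arrays). Monocyte and neutrophil markers had one of 0.0068 (6 of 11 higher, 285 to 329 and 301 to 321), lymphocyte markers one of -0.0046 (4 of 9 higher, 192 to 199 and 193 to 200.3) and red blood cell markers one of 0.11 (4 of 5 higher, 92.1 to 110.5 and 104 to 109).

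Markers of the retinal pigment epithelium lay higher alongside the phagocytic genes. Of 19 measured markers 17 lay higher in mutant arrays, with a median difference of 0.36 and pair medians of 0.22, 0.23 and 0.56. Their summed linear signal was 2784, 2759 and 1769 in wild type and 4025, 4218 and 3073 in mutant arrays, without overlap, and 3 of the 19 lay below 4.76. The separation of the sums rested on Ttr, the marker with the largest difference (2.27, SE 0.78). Without Ttr the sums overlapped, mutant replicate 3 falling below wild type replicates 1 and 2. Read gene by gene, the rise was not limited to Ttr. At an unadjusted p under 0.05, 10 of the 19 were higher and 0 lower, against 2.33% and 1.09% of all genes. For 11 the groups did not overlap, with all mutant arrays higher (against 5.89% of all genes), and 0 passed over all probe sets. The pigment epithelium is itself a phagocytic, lysosome-rich cell layer, and its part in the differences of Ctss, of other lysosomal genes and of Gpnmb was not tested. Lens crystallins (14 of 14 higher, median 0.77) differed almost wholly in the third pair (2.01, against 0.079 and 0.16), and photoreceptor markers lay lower (2 of 14 higher, median -0.18, or -0.053 without mutant replicate 3 and -0.085 without wild type replicate 1). Müller glia markers had a median of 0.13 (6 of 10 higher) and vascular and mural markers one of 0.087 (10 of 16 higher). Leaving out wild type replicate 3 gave 0.081 for the former and -0.0042 for the latter. The vascular median was also lower when either of the first 2 mutant arrays was dropped (0.040 for replicate 1, 0.020 for replicate 2), and 0.013 when the first wild type array was. The part of these cells was not tested either.

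**Figure D5:**
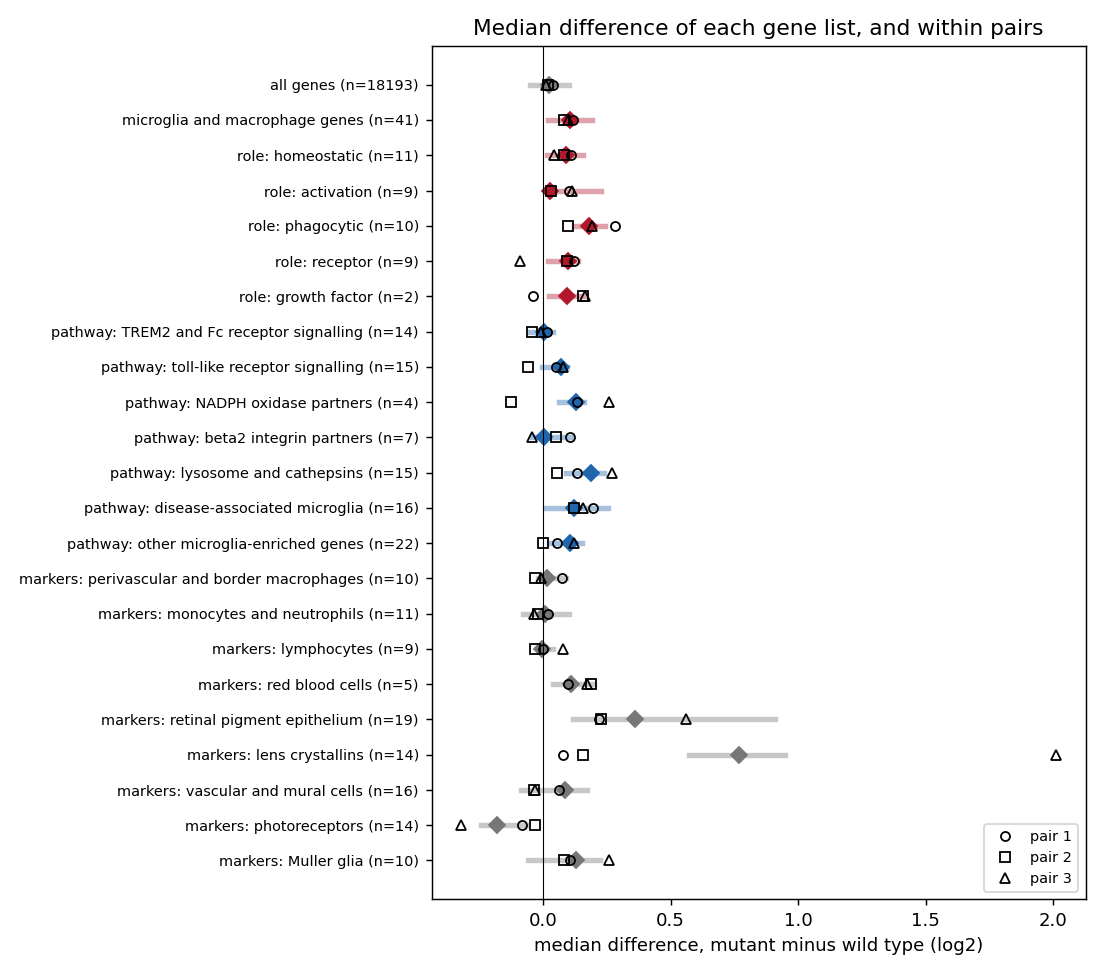
Median difference between mutant and wild type retina (x axis, log2) of each gene list (rows, with the number of measured genes), as diamonds with the quartile range as a bar, and the median within each pair of same-numbered arrays as open symbols. The pair medians lie above 0 for the phagocytic genes as for several other lists, pigment epithelium markers lie farther out at 0.36, and lens crystallins are set apart by the third pair.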

How the data were processed

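The deposited table gives log2 expression of 45101 probe sets on 6 arrays, which the authors produced with RMA, according to the submitters' processing notes; version and genome build are not stated in the sources used here. RMA equalises the arrays, so shifts in total signal are lost. Without 64 control probe sets, 45037 were fitted by limma 3.58.1 in R 4.3.3, mutant minus wild type, and Benjamini-Hochberg adjusted p-values were held to a threshold of 0.05. The platform annotation gives 1 symbol to 34945 of them, several to 932 and none to 9160. Array medians lay between 4.74 and 4.79, and the number of arrays limits the precision.

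The labels number the arrays 1 to 3 per group. Within a number, the residuals left after removing group means correlated at 0.477, 0.469 and 0.563, so the numbers were taken to pair the arrays, a reading of the data and not of the labels. Nothing says that pools came from separate litters, so p-values measure the spread between these pools. The 41 genes, their roles and all lists were chosen with earlier results of these data known. Values on every array are given for the 14 of the 41 genes with the smallest p, for 7 set markers and for Fcgr3. Up to 3 genes are named per pathway list by smallest p. Tested on simulated data with 200 changed probe sets among 45037, the fit recovered 83.3% of log2 differences of 1 and 98.1% of those of 2. The simulated noise was independent between probe sets, and 200 changed probe sets loosen the adjusted threshold. Only 5 probe sets passed in the measured data, so these shares do not give the power for the 41 genes. Alternatives were the replicate block, dropping dim probe sets, further quantile normalization, centring on medians, a trended robust eBayes fit, weighting arrays, other choices of probe set, and leaving out arrays. Figures were drawn with matplotlib 3.10.9.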

Additional observations from a re-analysis of the deposited data

How the results depend on the processing

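With the replicate block 0 of the 41 genes passed over all probe sets, as under each of the 15 alternatives, where the smallest adjusted p was 0.193 (Ctss with the block, limma). The block gave 7 of the 41 genes at an unadjusted p under 0.05, and 15 probe sets and 8 genes of the whole array past the adjusted threshold, against 4, 5 and 3 without it. Array weights gave 7, 25 and 11. Median centring and the trended robust fit gave 2 of the 41 each. Over all probe sets, 1360 had an unadjusted p under 0.05 in the main fit, 3425 with the block and 4292 with array weights. Median centring gave 1252 and the trended robust fit 1322. With only probe sets that carry no suffix letter, 3 probe sets passed over all and 2 of the 35 genes left were at an unadjusted p under 0.05. Averaging the probe sets of each gene gave 7 genes over all. With dim probe sets left out, 20 of the 23 genes left were above 0, fewer because fewer were tested. Without 1 array at a time the counts ran from 2 to 9 probe sets, from 1 to 4 genes and from 1 to 7 of the 41. Without both replicate 3 arrays 16 probe sets and 8 genes passed. The median difference of the 41 genes ran from 0.072 (without mutant replicate 1) to 0.15 over all alternatives, and 29 to 37 of the 41 were above 0 without 1 array. Apart from the smaller number tested, the causes were not tested. Of 591 single-gene values under alternatives, 584 moved by less than 1 SD between arrays. Many of the 591 could not move, so that share says little about robustness. The block, the trended robust fit and the dropping of dim probe sets leave the difference of a probe set unchanged.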
